A study of Homo sapiens with 4 samples.

Results

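The E2F transcription factors and the retinoblastoma pocket proteins were examined in MDA-MB-231, an established line of triple-negative breast cancer cells, after exposure to MGH-CP1. The 10 genes were picked by symbol from 48162 gene rows: 7 that encode E2F factors (E2F1, E2F2, E2F3, E2F4, E2F5, E2F7 and E2F8) and 3 that encode pocket proteins (RB1, RBL1 and RBL2). RBL1 had a second row, with 1 read in 1 library, and the row with the higher mean was used. The study sequenced poly(A) RNA of 2 libraries of vehicle-treated cells and 2 libraries of cells given 10 µM MGH-CP1, all from the 24 h treatment of this single line, with no genetic change named in the labels. The series title describes the compound as acting on TEAD palmitoylation. Separate cultures are not named for the replicates, so p-values here speak to the spread between libraries, which may be technical. The comparison of MGH-CP1 with vehicle is the single contrast of the study.

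E2F factors bind DNA with a DP partner and control the genes that carry a cell from G1 into S phase. E2F1, E2F2 and E2F3 are known mainly as activators, E2F4 and E2F5 act mostly as repressors together with the pocket proteins p107 and p130, and E2F7 and E2F8 are atypical repressors that bind DNA without a DP partner. The pocket proteins pRB (RB1), p107 (RBL1) and p130 (RBL2) hold E2F factors in check until cyclin-dependent kinases phosphorylate them. E2F1, E2F2, E2F7, E2F8 and RBL1 are themselves known E2F targets, so their mRNA levels follow the cell cycle in many cell types.

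Depth was 16790645 to 18485701 reads per library, summed over genes. Reads of mitochondrial transcripts made up 0.676% and 0.645% of the vehicle libraries and 1.81% and 1.54% of the MGH-CP1 libraries, and the part of this shift in the results was not tested. The line's identity was checked on marker lists. VIM, CD44, ZEB1, CAV1 and FN1, 5 of 6 mesenchymal markers, were expressed, while SPARC was under 1 FPKM in every library. Of 8 luminal markers, 4 were under 1 FPKM in every library, the steroid receptor genes ESR1 and PGR among them, and PGR was at 0 in all. The other 4 luminal markers were expressed, at vehicle means of 74.5 FPKM for KRT18, 24.9 for ERBB2, 8.16 for EPCAM and 4.59 for GATA3. Summed levels of 6 fibroblast markers were 5.0 to 7.56 FPKM in vehicle and 5.86 to 6.30 FPKM with MGH-CP1, with COL3A1, DCN and LUM under 1 FPKM in every library. COL1A1, COL1A2 and PDGFRB made up most of these sums, at vehicle means of 2.32, 2.44 and 1.13 FPKM. Summed levels of 6 immune markers were 3.58 to 3.64 and 3.63 to 3.96 FPKM. Most of this was CD14, at means of 3.23 FPKM in vehicle and 2.99 FPKM with MGH-CP1. The other 5 immune markers, PTPRC and CD3E among them, were under 1 FPKM in every library. Summed levels of 4 endothelial markers were under 1 FPKM in every library. CYR61, a standard TEAD target, went from 232 ± 5.08 to 59.5 ± 4.37 FPKM (SD, n = 2 libraries per group). All 5 TEAD targets listed for context fell (limma, adjusted p under 0.05), where 25.1% of all 11790 tested genes fell. These targets were chosen with earlier results of these data known. Of the other TEAD targets, ANKRD1 went from 90.4 ± 7.12 to 34.4 ± 0.441 FPKM, CTGF from 33.3 ± 1.37 to 12.1 ± 1.37 FPKM and AMOTL2 from 33.8 ± 2.10 to 11.6 ± 0.0881 FPKM.

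Most of the E2F and RB family was lower with MGH-CP1. Of the 10 members 8 fell, none rose and 2 did not pass the test (limma, adjusted p under 0.05), where 25.1% of all 11790 tested genes fell, 20.0% rose and 45.0% changed in either direction. The largest falls were those of E2F1, E2F2 and E2F8, each by more than 4-fold in mean FPKM, followed by RBL1. E2F3, E2F4, E2F7 and RB1 fell by less, and E2F5 and RBL2 did not pass. The median log2 fold change of the members was -0.52, against -0.02 over all genes tested. In 8 members both MGH-CP1 values lay below both vehicle values, as they did in 39.4% of all genes tested. All 10 members passed the filter of a mean of at least 1 FPKM. In bulk RNA, fewer cells in the phase that expresses a gene and less RNA per cell cannot be told apart.

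**Figure D1:**
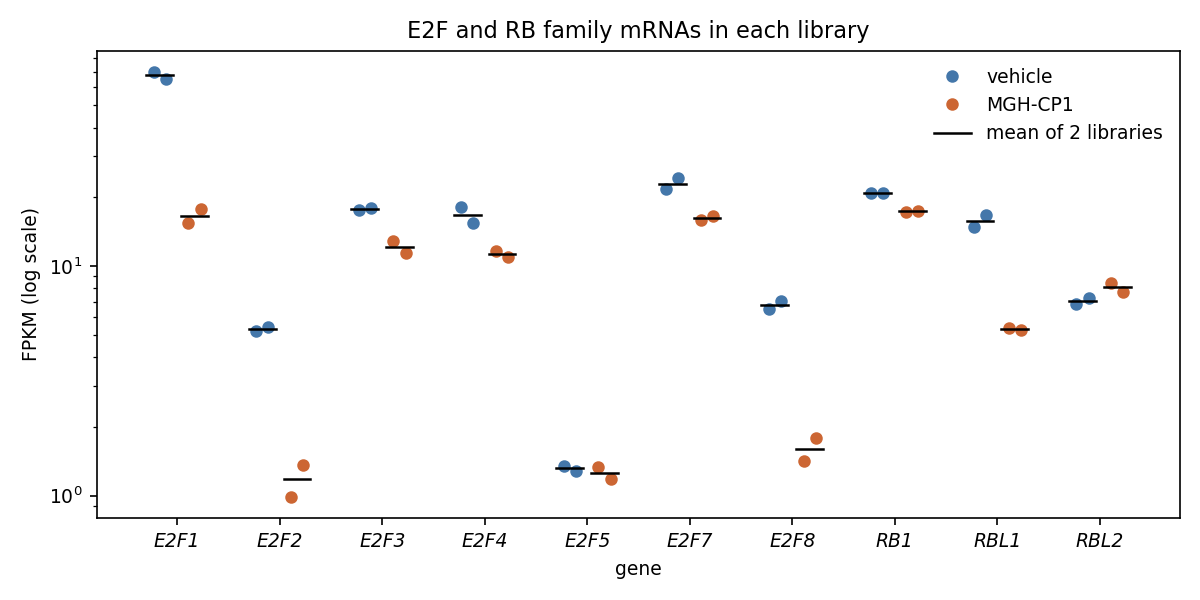
FPKM (reads divided by gene length and by library size; log axis) of the 10 members in each library, with a point per library and a line at the mean of 2 libraries. E2F1 stands highest in vehicle at 65.2 and 69.8 FPKM and at 15.4 and 17.7 FPKM with MGH-CP1, while the E2F5 points of both groups lie between 1.18 and 1.35 FPKM.

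The activator E2F1 (ENSG00000101412, hg19 chromosome 20, 32263489 to 32274210, minus strand) is the founding member of the family and can drive both S phase entry and apoptosis. Its level was 69.8 and 65.2 FPKM in vehicle and 15.4 and 17.7 FPKM with MGH-CP1. Both treated libraries were therefore well below both controls. The means differed 4.08-fold, and the log2 fold change was -1.97 ± 0.08 (SE; limma, adjusted p = 1.47e-05). Here and below, each log2 value is a difference of log2(FPKM + 1), so the change of a gene with low values comes out too small. Counted from the lowest, this was rank 20 of the 11790 log2 fold changes. The value rested on 2741 and 3229 reads in vehicle and 665 and 751 reads with MGH-CP1.

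E2F2 (ENSG00000007968, chromosome 1, 23832922 to 23857712, minus strand), a second activator, was expressed at a much lower level. It was measured at 5.21 and 5.40 FPKM in vehicle and at 0.991 and 1.36 FPKM with MGH-CP1, again with no overlap. The means differed 4.51-fold, while the log2 fold change, which the pseudocount shrinks most at such low levels, was -1.54 ± 0.12 (limma, adjusted p = 0.000102). With MGH-CP1 the gene had 89 and 120 reads.

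E2F3 (ENSG00000112242, chromosome 6, 20402398 to 20493941, plus strand) is the third activator and is made from 2 promoters as long and short forms, which a value per gene does not separate. It stood at 17.5 and 17.8 FPKM in vehicle and 12.8 and 11.4 FPKM with MGH-CP1. The groups did not overlap, but the fall was 1.46-fold (log2 fold change -0.51 ± 0.07, 95% interval -0.69 to -0.34; limma, adjusted p = 0.0015).

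Of the repressors that work with pocket proteins, E2F4 fell and E2F5 did not pass. E2F4 (ENSG00000205250, chromosome 16, 67226072 to 67232821, plus strand), usually the main E2F of resting cells, went from 18.1 and 15.3 FPKM to 11.6 and 10.9 FPKM. The vehicle libraries differed more from each other than the treated ones, yet both were higher. Its log2 fold change was -0.53 ± 0.09 (limma, adjusted p = 0.00293), a 1.48-fold difference in means. E2F5 (ENSG00000133740, chromosome 8, 86089460 to 86129387, plus strand) was the lowest member in vehicle, at 1.35 and 1.28 FPKM, against 1.33 and 1.18 FPKM with MGH-CP1. These values overlapped, and the log2 difference of -0.04 (limma, adjusted p = 0.829) had a 95% interval of -0.33 to 0.26. E2F5 had at most 126 reads in a library, and C8orf59, on the opposite strand and overlapping it over 3077 bases, averaged 3.19 FPKM. Whether counting used strand is not given in the sources used here, so reads from the shared stretch cannot be assigned with certainty.

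The 2 atypical repressors moved by different amounts. E2F8 (ENSG00000129173, chromosome 11, 19245610 to 19263167, minus strand) was at 6.49 and 7.06 FPKM in vehicle and 1.42 and 1.79 FPKM with MGH-CP1. Both treated libraries were far below the controls, with a 4.23-fold difference in means (log2 fold change -1.58 ± 0.11; limma, adjusted p = 7.05e-05). E2F7 (ENSG00000165891, chromosome 12, 77415027 to 77459360, minus strand), its closest relative, was the more abundant of the pair, at 21.6 and 24.1 FPKM in vehicle and 15.8 and 16.5 FPKM with MGH-CP1. Its groups did not overlap either, and its fall was 1.41-fold (log2 fold change -0.47 ± 0.07; limma, adjusted p = 0.00202).

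The pocket proteins spanned the range from a 2.97-fold fall to no call. RBL1 (ENSG00000080839, chromosome 20, 35624752 to 35724398, minus strand), which encodes p107, the pocket protein typical of cycling cells, went from 14.8 and 16.7 FPKM to 5.36 and 5.24 FPKM. The log2 fold change was -1.41 ± 0.08 (limma, adjusted p = 3.98e-05), and the treated libraries lay close together. RB1 (ENSG00000139687, chromosome 13, 48877887 to 49056122, plus strand), the tumour suppressor that gives the family its name, stood at 20.7 FPKM in both vehicle libraries and at 17.1 and 17.4 FPKM with MGH-CP1. This 1.2-fold fall passed the test (log2 fold change -0.25 ± 0.06; limma, adjusted p = 0.0127). The RB1 call was lost without MGH-CP1 replicate 1 (limma, adjusted p = 0.0991) and without MGH-CP1 replicate 2 (limma, adjusted p = 0.0781). RBL2 (ENSG00000103479, chromosome 16, 53467889 to 53525561, plus strand), which encodes p130, the pocket protein typical of quiescent cells, was at 6.83 and 7.25 FPKM in vehicle and 8.39 and 7.73 FPKM with MGH-CP1. The treated values were both the higher ones, but the log2 difference of 0.17 ± 0.08 did not pass (limma, adjusted p = 0.127), and its 95% interval ran from -0.02 to 0.36. AKTIP, on the opposite strand, overlaps RBL2 over 271 bases and averaged 3.03 FPKM.

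**Figure D2:**
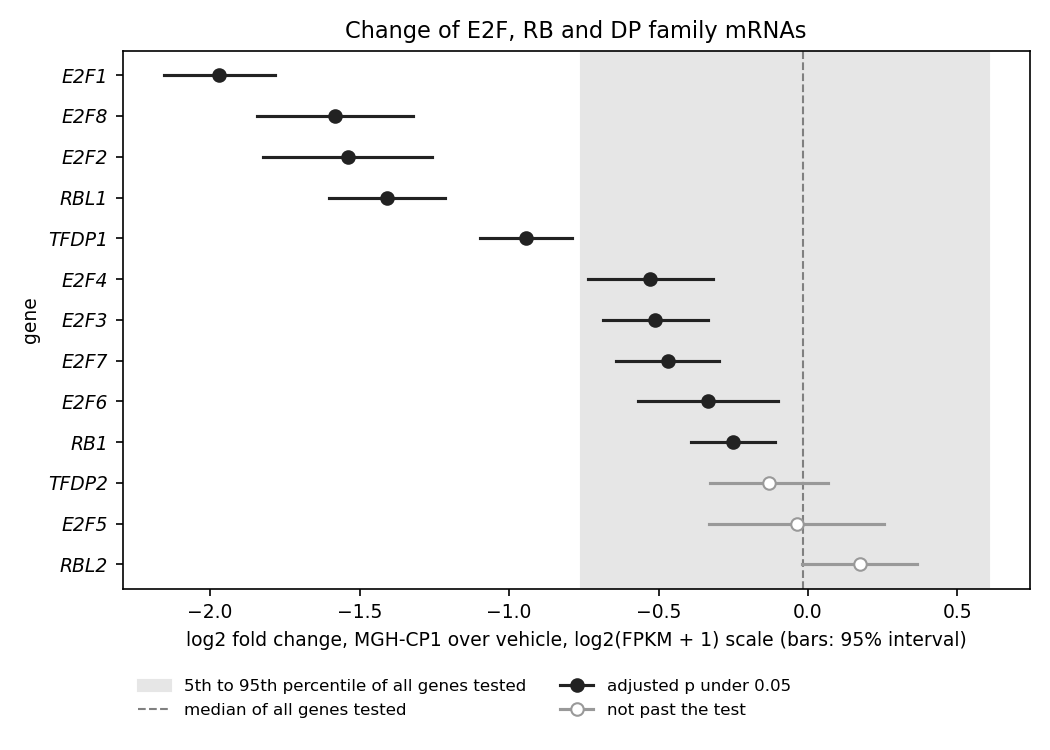
Log2 fold change of MGH-CP1 over vehicle with its 95% interval (limma, log2(FPKM + 1) scale) for the 10 members, the DP genes and E2F6, with the 5th to 95th percentile of all tested genes in grey. E2F1, E2F8, E2F2, RBL1 and TFDP1 lie below the 5th percentile of -0.76, and the intervals of TFDP2, E2F5 and RBL2 cross 0.

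Promoter sequence is shown for members on both sides of the range, to let their starts be compared. RefSeq windows (GRCh38.p14) of 250 bases before to 50 after a start were matched by symbol for 8 of the 10 members, all but E2F5 and E2F8. The entry for RB1 belongs to a start 172724 bases inside the gene as GENCODE 29 annotates it and is not shown. The RBL2 entries belong to starts 494 and 1642 bases inside that gene in the same annotation, and the first is shown. Each window was searched on both strands for 5 E2F-like octamers, TTTCCCGC, TTTGGCGC, TTTCGCGC, TTTGCCGC and TTTGGCGG, and for TTTGAA, a form of the cell cycle homology region. The lines below give the 100 bases before the start, 5′ to 3′, with matches in capitals, and a match on the opposite strand appears as its reverse complement.
E2F1, chr20:33686386-33686485, minus strand: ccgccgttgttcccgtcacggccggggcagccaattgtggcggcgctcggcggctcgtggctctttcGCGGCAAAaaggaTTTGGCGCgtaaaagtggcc
E2F2, chr1:23531234-23531333, minus strand: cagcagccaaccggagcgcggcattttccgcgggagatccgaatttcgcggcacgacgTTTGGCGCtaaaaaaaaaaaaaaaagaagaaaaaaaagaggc
RBL1, chr20:37095998-37096097, minus strand: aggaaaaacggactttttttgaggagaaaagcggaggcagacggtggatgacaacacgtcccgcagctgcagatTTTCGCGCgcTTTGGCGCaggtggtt
E2F3, chr6:20401779-20401878, plus strand: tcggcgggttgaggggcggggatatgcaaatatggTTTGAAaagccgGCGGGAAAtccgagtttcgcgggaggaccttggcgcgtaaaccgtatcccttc
E2F7, chr12:77065570-77065669, minus strand: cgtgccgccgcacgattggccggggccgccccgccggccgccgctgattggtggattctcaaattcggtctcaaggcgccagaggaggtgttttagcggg
RBL2, chr16:53434371-53434470, plus strand: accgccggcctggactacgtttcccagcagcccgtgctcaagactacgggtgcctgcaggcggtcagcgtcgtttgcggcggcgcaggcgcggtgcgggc

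E2F1 and RBL1, which fell 4.08-fold and 2.97-fold, each held 2 E2F-like octamers close to the start. In E2F1 they began 33 and 20 bases before it, and in RBL1 26 and 16 bases before it. E2F2 held TTTGGCGC 42 bases before the start, and E2F3 held TTTCCCGC on the opposite strand 53 bases before the first of its 2 starts, with TTTGAA 65 bases before it. TTTGGCGC was thus common to E2F1, E2F2 and RBL1, and 0.652% of all 35116 windows held it. Any of the 5 octamers was found in 4 of the 10 windows of the 8 matched members, the RB1 window included, against 3.92% of all windows. Base composition was not matched in this comparison, and G and C made up 38.3% to 77.3% of the member windows. No matches within these windows overlapped. E2F4, E2F7 and RBL2 had none of the 5 octamers in their windows, and RBL2 held TTTGAA after its first start, a motif that 15.2% of all windows hold. The RBL2 windows lie at starts 494 and 1642 bases inside the annotated gene, so the promoter at the RBL2 gene start was not searched. The RB1 window also had none of the octamers. It lies at the start inside the gene, so the promoter at the RB1 gene start was not searched either. A match is a run of letters and not evidence of binding, and its absence says only that these letters are not in the window. TTTCGCGG, which was not searched, is also in the printed lines of E2F1, E2F2 and E2F3, so the counts depend on the octamers chosen.

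The balance between members shifted within each library. FPKM is per length, so members can be set against each other, and a library's scaling cancels in such a ratio. The ratio of RBL1 to RBL2 was 2.17 and 2.30 in vehicle and 0.639 and 0.678 with MGH-CP1, so p107 mRNA was the more abundant of the pair in vehicle and the less abundant in treated cells. E2F1 stood 3.86 and 4.26 times above E2F4 in vehicle and 1.33 and 1.62 times above it with MGH-CP1. The sum of E2F7 and E2F8 over the sum of the 3 activators was 0.304 and 0.352 in vehicle and 0.592 and 0.602 with MGH-CP1. Further ratios were chosen after their values were seen. E2F8 to E2F7 was 0.301 and 0.294 in vehicle and 0.0894 and 0.108 with MGH-CP1, E2F1 to E2F3 went from 3.99 and 3.67 to 1.203 and 1.55, and RBL1 to RB1 from 0.716 and 0.803 to 0.313 and 0.301. None of these ratios overlapped between groups, but lack of overlap was common. Of the 11790 tested genes, only 3058 overlapped between groups in their own values. The ratios also follow from the unequal changes of their members given above. They are given as a description, without a test. An exact two-sided permutation test of 2 libraries against 2 cannot go below p = 0.33.

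**Figure D3:**
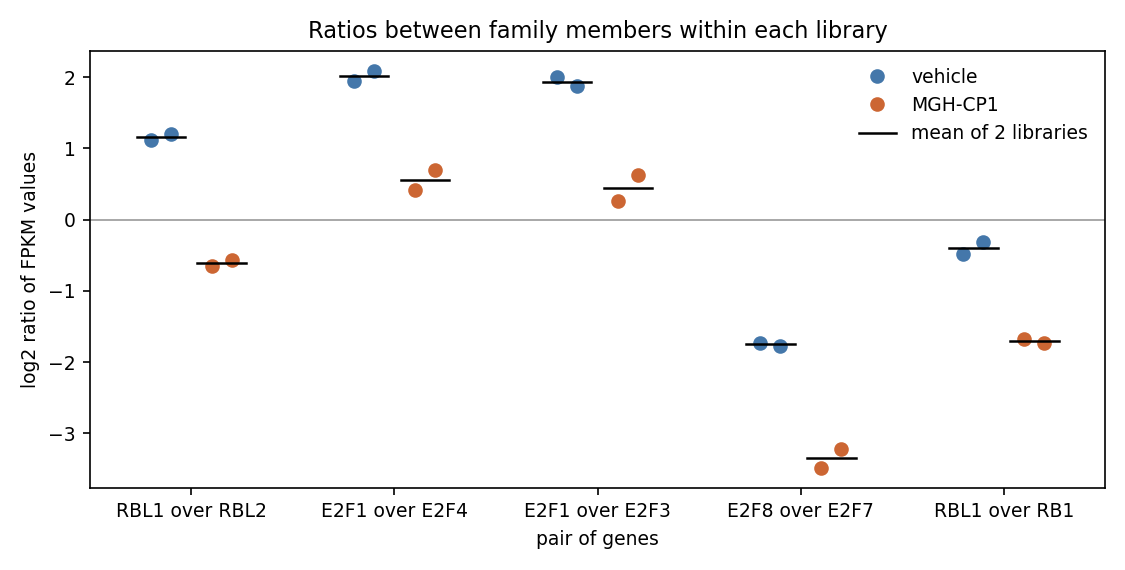
Log2 ratio of FPKM values of pairs of members in each library, with a point per library and a line at the mean of 2 libraries. The RBL1 over RBL2 points lie above 0 in vehicle (1.12 and 1.201) and below 0 with MGH-CP1 (-0.65 and -0.56).

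The summed level of the 7 E2F members was 140 and 136 FPKM in vehicle and 59.3 and 60.9 FPKM with MGH-CP1. E2F1 made up 49.9% and 47.9% of this sum in vehicle and 25.9% and 29.05% with MGH-CP1. E2F7 went from 15.4% and 17.7% to 26.7% and 27.2%, and in treated cells its level was within the spread of E2F1. In vehicle the members ranked, by mean FPKM, E2F1, E2F7, RB1, E2F3, E2F4, RBL1, RBL2, E2F8, E2F2 and E2F5. The neighbours E2F3 and E2F4, E2F4 and RBL1, and RBL2 and E2F8 overlapped in that order. With MGH-CP1 the order was RB1, E2F1, E2F7, E2F3, E2F4, RBL2, RBL1, E2F8, E2F5 and E2F2, where RB1 and E2F1, E2F1 and E2F7, E2F3 and E2F4, and E2F5 and E2F2 overlapped.

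The DP genes and E2F6, which complete the family, also differed among themselves. TFDP1, the main DNA-binding partner of the E2F factors, went from 56.3 and 56.9 FPKM to 27.6 and 30.4 FPKM, a 1.95-fold fall (log2 fold change -0.94 ± 0.07; limma, adjusted p = 6.67e-05). TFDP2, the alternative partner, was at 5.58 and 5.84 FPKM in vehicle and 5.03 and 5.24 FPKM with MGH-CP1 and did not pass (limma, adjusted p = 0.246; 95% interval -0.33 to 0.07). E2F6, a repressor that works with Polycomb proteins and not with pocket proteins, went from 4.73 and 5.04 FPKM to 3.93 and 3.42 FPKM (log2 fold change -0.33 ± 0.10; limma, adjusted p = 0.0294). Under 4 of 11 alternatives E2F6 was no longer called, among them without vehicle replicate 2 (limma, adjusted p = 0.0803) and without MGH-CP1 replicate 2 (limma, adjusted p = 0.183, the highest). Of 7 tested Polycomb partners of E2F6, 2 fell, a share near the 25.1% of all tested genes. PCGF6 went from 11.7 ± 0.676 to 6.22 ± 0.377 FPKM and L3MBTL2 from 3.06 ± 0.0854 to 1.97 ± 0.141 FPKM, while RING1, at 38.3 ± 4.92 and 42.5 ± 0.236 FPKM, did not pass. L3MBTL2 lost its call without MGH-CP1 replicate 2 (limma, adjusted p = 0.0754), and RING1 was called higher without vehicle replicate 1 (limma, adjusted p = 0.00352).

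Kinases and cyclins that inactivate the pocket proteins fell. Of the 10 genes of this list, 1 was not tested. The 9 tested genes were all called lower, against 25.1% of all tested genes. Their median log2 fold change was -1.11, against -0.02 over all genes tested. With no filter on low values, and likewise without MGH-CP1 replicate 1, 7 of them were called. The E-type cyclin genes, whose products drive the G1 to S transition with CDK2, were lowest: CCNE2 went from 3.63 ± 0.837 to 0.491 ± 0.0564 FPKM and CCNE1 from 6.32 ± 0.198 to 1.75 ± 0.400 FPKM. CDK1 went from 52.2 ± 4.23 to 19.7 ± 1.44 FPKM and the cyclin A gene CCNA2 from 73.1 ± 4.75 to 29.2 ± 1.62 FPKM. Of 5 tested CDK inhibitor genes 2 rose and 1 fell, too few to be read against the 20.0% and 25.1% of all tested genes. CDKN1C, which encodes p57, rose from 3.90 ± 0.634 to 9.59 ± 0.471 FPKM (log2 fold change 1.12 ± 0.11), and CDKN1A, which encodes p21, from 97.1 ± 2.76 to 131 ± 5.96 FPKM (log2 fold change 0.43 ± 0.06). CDKN2C, which encodes the CDK4 and CDK6 inhibitor p18, fell from 24.6 ± 1.67 to 15.0 ± 0.250 FPKM. CDKN1B, which encodes p27, was at 13.6 ± 0.471 and 15.8 ± 0.916 FPKM (limma, adjusted p = 0.056), and it was called higher in 4 of 12 alternatives, among them without vehicle replicate 2 (limma, adjusted p = 0.0393).

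Genes of the MuvB complexes fell, whereas genes for corepressors that bind pocket proteins split into a part that fell and a part that did not. MuvB is the core complex that joins p107 or p130 and E2F4 in the DREAM repressor of resting cells and B-MYB or FOXM1 in cycling cells. All 7 tested genes of this list fell, against 25.1% of all tested genes. They were led by MYBL1 (14.8 ± 0.825 to 4.55 ± 0.198 FPKM) and MYBL2, which encodes B-MYB (69.3 ± 2.55 to 24.7 ± 1.59 FPKM). The MuvB gene LIN9 went from 4.28 ± 0.125 to 1.87 ± 0.657 FPKM and FOXM1 from 45.3 ± 3.48 to 27.5 ± 2.15 FPKM. With no filter on low values LIN9 was no longer called (limma, adjusted p = 0.0552), and 5 genes of the list were. Of 13 genes for chromatin corepressors that bind pocket proteins, 7 fell and 1 rose, where 25.1% of all tested genes fell and 20.0% rose. The histone methyltransferase gene EZH2 (18.7 ± 0.327 to 7.15 ± 0.212 FPKM), the DNA methyltransferase gene DNMT1 (76.2 ± 1.57 to 32.9 ± 1.61 FPKM), RBBP8 (20.9 ± 2.07 to 8.76 ± 0.886 FPKM) and SUV39H1 (9.90 ± 0.0673 to 4.13 ± 0.172 FPKM) fell most. SIN3B, which encodes a scaffold of histone deacetylase complexes, rose from 21.7 ± 0.867 to 28.5 ± 0.298 FPKM. SMARCA4, a chromatin remodeller gene, was at 75.1 ± 4.65 and 66.8 ± 0.597 FPKM (limma, adjusted p = 0.0658), and without vehicle replicate 2 it was called lower (limma, adjusted p = 0.00852). The number of corepressor genes that fell was 4 without MGH-CP1 replicate 1.

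Genes for parts and regulators of ubiquitin ligases that act on E2F proteins and on the cell cycle fell in 5 of 7 cases. Of all tested genes, 25.1% fell. FBXO5, which encodes the inhibitor EMI1, went from 14.3 ± 1.42 to 3.67 ± 0.283 FPKM, and SKP2, which encodes the receptor that marks p27 for decay, from 9.78 ± 0.743 to 3.26 ± 0.166 FPKM. CCNF, whose product cyclin F marks E2F factors for decay, went from 17.1 ± 0.0753 to 8.41 ± 0.136 FPKM, and CDC20 from 88.5 ± 2.24 to 49.7 ± 1.33 FPKM. The adaptor gene SKP1, at 88.8 ± 1.03 and 87.8 ± 3.27 FPKM, did not pass.

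All 32 textbook E2F target genes fell, and their median log2 fold change was -1.61. They included MCM10 (11.6 ± 0.218 to 1.44 ± 0.164 FPKM), UHRF1 (30.3 ± 2.15 to 5.26 ± 0.148 FPKM), RRM2 (76.2 ± 0.629 to 15.9 ± 0.704 FPKM) and CDC6 (30.4 ± 2.11 to 6.03 ± 0.844 FPKM). This list was chosen with the fall of replication genes in these data already known, so it is no independent evidence of its direction. Over all 9 pathway lists, with genes on several lists counted once, 64 of 82 tested genes fell and 3 rose, where 25.1% and 20.0% of all tested genes did. The 32 E2F targets and the 5 TEAD targets are among the 64 that fell.

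**Figure D4:**
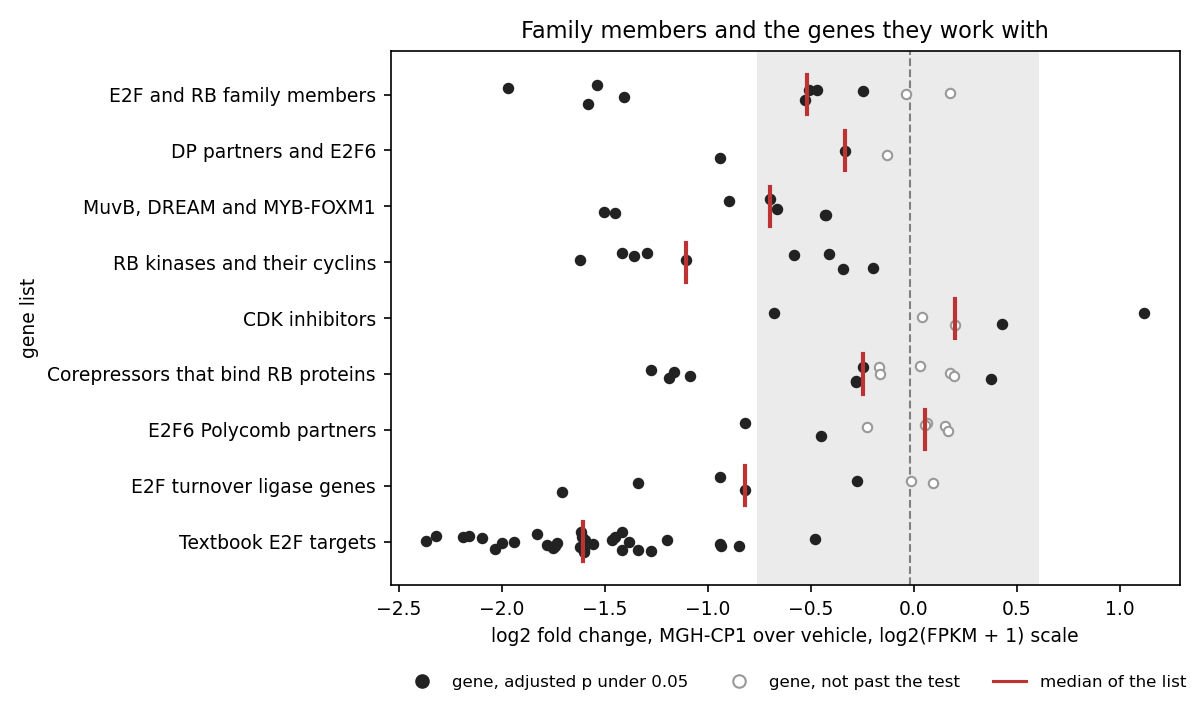
Log2 fold change (limma, log2(FPKM + 1) scale) of each tested gene in the E2F and RB family and in 8 lists of genes that act with it, with the median of each list as a red line, the 5th to 95th percentile of all tested genes in grey and their median as a dashed line. The medians run from -1.61 for the E2F targets to 0.20 for the CDK inhibitors.

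Genes whose profile was most like that of E2F1 over the 4 libraries were named by the smallest distance between log2(FPKM + 1) values set relative to each gene's vehicle mean. They were WDR76, GINS2, FEN1, CHAF1B and PRIM1, at distances of 0.101 to 0.154 log2 units. Their mean FPKM values were 11.5 and 2.26 for WDR76, 9.86 and 1.77 for GINS2, 52.4 and 11.9 for FEN1, 17.4 and 3.70 for CHAF1B, and 10.3 and 2.06 for PRIM1, in vehicle and with MGH-CP1. The likeness rests on 4 libraries in 2 groups and was not tested.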

How the data were processed

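The authors deposited 1 table of FPKM values with hg19 coordinates and gene lengths, and CASAVA 1.8, STAR and hg19 are named in the submitters' processing notes. Which counter and annotation were used, and whether counting used strand, is not given in the sources used here. FPKM times length gave whole multiples of 1 step for 100% of values above 0 in each library (within 0.05 of a whole number), and these were taken as reads. A single read on 1 kb was worth 0.0541 to 0.0596 FPKM. Between replicates, the median chi-square per gene was 1.78 in vehicle and 1.05 in MGH-CP1 (sampling alone gives 0.455).

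The 11790 genes whose mean reached 1 FPKM were fitted with limma 3.58.1 (R 4.3.3) on log2(FPKM + 1), with group as the only term and a mean-variance trend. The fit was first run on simulated libraries. That run had to call most of the largest known changes and give the right direction, and false calls were not judged. P-values were adjusted by Benjamini-Hochberg over all genes tested, and genes were called under 0.05. Means are given ± SD (n = 2 libraries). Alternatives were another pseudocount, filter, scaling, voom, no trend, a replicate block and leaving out each library. The members and lists were chosen with earlier results of these data known. From each list the text names the 4 largest called changes, up to 3 called against the majority, and the uncalled gene with most reads. Protein sequences were not used here. Tables were made with pandas 2.3.3 and figures with matplotlib 3.10.9.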

Additional observations from a re-analysis of the deposited data

How the results depend on the processing

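E2F1, E2F2, E2F3, E2F4, E2F7, E2F8 and RBL1 kept their direction and their call under every alternative in which they were tested (11 or 12 each). E2F2, E2F5 and E2F8 were not tested among genes of at least 5 FPKM. E2F5 was never called, and its log2 difference turned from -0.04 to 0.0156 with median centring, and it ran from -0.0851 to 0.0104 when each library was left out, above 0 without MGH-CP1 replicate 2. SKP1 likewise turned to 0.0362 with median centring and 0.00329 with quantile normalization, ran from -0.0543 to 0.0209 when each library was left out, above 0 without MGH-CP1 replicate 2, and was never called. The number of all genes called higher was 2355. It was 1568 with no filter on low values and 1460 to 2556 when each library was left out, 1524 without MGH-CP1 replicate 1 and 1460 without MGH-CP1 replicate 2. More genes were called lower than higher (2956 and 2355), but median centring gave 2463 lower and 2845 higher and quantile normalization 2590 lower and 2803 higher. The comparison of proteins was not run. Among the pathway genes, 3 were called higher, and 5 with median centring and 5 with quantile normalization. No replicate pairing is stated in the labels beyond shared numbers, and the deviations of same-numbered libraries had a correlation of 0.0502 across genes. With the replicate block, 3036 genes were lower and 2453 higher, and the number of members that fell stayed at 8. Leaving out a library leaves 1 sample in a group, which is then assumed to vary like the other group. The fit had 2 residual degrees of freedom. E2F2, E2F5 and E2F8 rest on the fewest reads. The cause of these shifts was not tested.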
